A study of Homo sapiens with 2 samples.

Results

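PCA3 and its opposite-strand host gene PRUNE2, the prostate lncRNA PCGEM1, and the androgen-linked pair SOCS2 and SOCS2-AS1 were examined in a table of RNA-seq counts. These 5 genes were chosen by name, each was found by its Ensembl identifier, and the table lists 64081 genes in all. The RNA came from LNCaP, an androgen-sensitive line derived from a prostate carcinoma. Cells were kept for 48 h in medium whose serum had been replaced with 10% charcoal stripped FBS, which lacks androgen, and the medium held 10 mM HEPES. The libraries were strand-oriented, paired-end and made from poly(A)+ RNA of 2 biological replicates, and all belong to 1 condition, named control in the labels. The authors deposited the counts of both replicates in 1 column, and the spread between replicates is thus unknown for every value given here. All intervals are at 95% and cover counting error only.

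PCA3 is a spliced lncRNA that is strongly raised in many prostate tumors, and its RNA in urine is used as a diagnostic marker. It is transcribed from within an intron of PRUNE2, on the other strand, and PRUNE2 encodes a protein with a BCH domain. PCGEM1 is a lncRNA with expression largely restricted to the prostate. SOCS2 encodes a suppressor of cytokine signaling that dampens growth hormone signaling through JAK and STAT proteins, and SOCS2-AS1 begins near the start of SOCS2 and runs the other way.

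Since these loci hold RNA from both strands, the strand behind each count comes first. The reads were mapped under the library type fr-secondstrand, in which read 1 has the same sequence as the RNA. For such paired-end data htseq-count was run with its reverse setting, according to the methods, which credits each pair to a gene whose strand is the reverse of that of read 1. The methods give this setting for strand-specific paired-end data in general, and it is assumed here to hold for the LNCaP libraries. With these settings combined, a pair listed under a gene arose from the other strand of its exons. The count listed for PCA3, a plus-strand gene, therefore holds pairs from the minus strand, that of PRUNE2. The count listed for PRUNE2 holds pairs from the plus strand, that of PCA3. Counts listed for PCGEM1 and SOCS2 hold pairs from the minus strand, and the count listed for SOCS2-AS1 holds pairs from the plus strand, that of SOCS2. Under this assumption, none of the values below is a level of the RNA of the gene under which it is listed.

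The strands of PCA3 can be told apart by the sequence at its splice sites. On GRCh37, the build called hg19 in the methods, the older PCA3 model has 4 exons between 79379352 and 79402485 on chromosome 9. It is the single PCA3 transcript with an Ensembl number below 610000, and it was set apart after the counts were seen because the counting used an earlier annotation than the one available here. The first 3 exons are shown on the strand of PCA3, in lower case, with the adjoining 2 bases of each intron in capitals. Exon 1 is shown a second time on the strand of PRUNE2, the strand from which the pairs listed for PCA3 come.
PCA3 exon 1, plus strand, chr9:79379352-79379471: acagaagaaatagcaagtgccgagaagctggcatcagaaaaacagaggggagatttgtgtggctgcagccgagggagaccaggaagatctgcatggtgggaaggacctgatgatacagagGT
PCA3 exon 1, minus strand, chr9:79379352-79379471: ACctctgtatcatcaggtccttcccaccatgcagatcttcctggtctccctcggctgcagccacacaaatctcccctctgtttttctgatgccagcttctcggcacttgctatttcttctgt
PCA3 exon 2, plus strand, chr9:79397584-79397748: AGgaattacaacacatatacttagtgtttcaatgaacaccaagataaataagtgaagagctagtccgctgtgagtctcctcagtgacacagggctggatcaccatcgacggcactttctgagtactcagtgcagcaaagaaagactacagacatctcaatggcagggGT
PCA3 exon 3, plus strand, chr9:79398621-79398803: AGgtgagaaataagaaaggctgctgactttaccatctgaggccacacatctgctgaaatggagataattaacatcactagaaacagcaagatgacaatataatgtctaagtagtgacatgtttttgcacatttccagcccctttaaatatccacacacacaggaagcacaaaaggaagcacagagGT
All 3 introns of this model begin with GT and end with AG on the plus strand, the usual borders of spliced introns, and 0 of the 3 do so on the minus strand. The exons measure 120, 165 and 183 nt, and exon 4, which is not shown, measures 3454 nt.

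The library had 9495309 pairs on genes, which is 6.39% of the pairs placed uniquely, and 3 features alone took 48.5% of these counts. A count of at least 10 was listed for 24.3% of all genes, 44.2% of protein-coding genes and 28.4% of lncRNA genes. Of the 8 prostate luminal markers, 7 had at least 10 counts. The counts of 6 luminal markers lay between 8 and 89, with 18 for KLK3 and 15 for TMPRSS2. The other 2, KRT8 with 6947 and KRT18 with 595, share 525 nt of exons on opposite strands. The basal markers TP63, KRT5 and KRT14 had counts of 1, 0 and 1, the neuroendocrine markers CHGA, SYP and ENO2 had 52 to 64, the stromal markers ACTA2, COL1A1 and VIM had 6 to 31, and the leukocyte marker PTPRC had 1. Because these counts come from the other strand of each marker, they do not check the identity of the cells.

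The count listed for PCA3 was 4107 (exact Poisson interval 3982 to 4235), which equals 433 CPM (419 to 446) when scaled to all pairs on genes. Only 159 of all listed genes had a higher count. Among genes with at least 1 count it lay at percentile 99.4, and among the 12805 lncRNAs it ranked at place 72. The count listed for PRUNE2 was 67 (51.9 to 85.1), or 7.06 CPM (5.47 to 8.96), at percentile 78.0. SOCS2 followed with 27 (17.8 to 39.3), or 2.84 CPM, at percentile 64.5, and SOCS2-AS1 with 15 (8.40 to 24.7), or 1.58 CPM, at percentile 53.9. PCGEM1 was listed at 0, for which a fixed limit of 3 counts or 0.316 CPM was used.

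**Figure D1:**
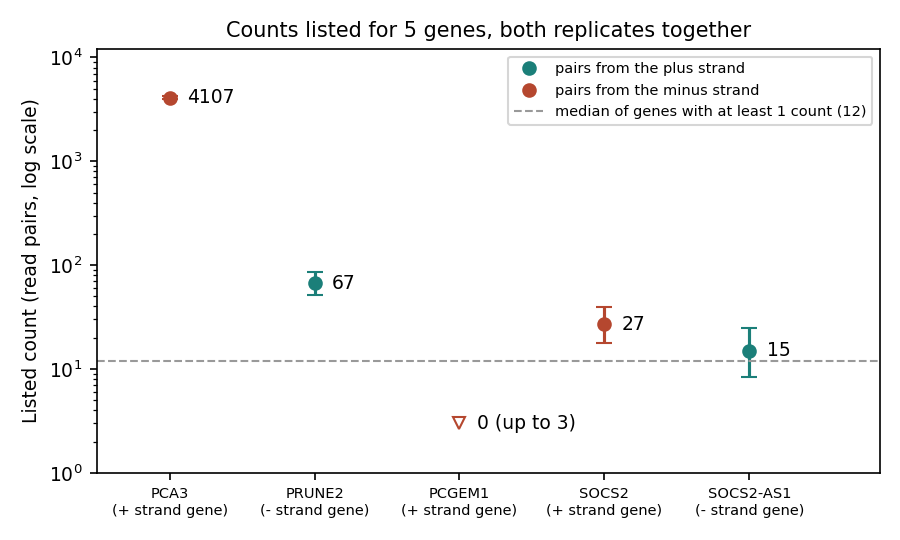
Count listed for each of the 5 genes (read pairs, log scale), both replicates together, with exact Poisson intervals and the color showing the strand of the pairs. PCA3 with 4107 stands far above PRUNE2 with 67, SOCS2 with 27 and SOCS2-AS1 with 15, and PCGEM1 at 0 is drawn as an open triangle at its limit of 3.

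In this order of listed counts, the intervals of PCA3 and PRUNE2 were apart, and so were those of PRUNE2 and SOCS2. The intervals of SOCS2 and SOCS2-AS1 overlapped. Per kb of exonic length, PRUNE2 had 4.56 counts (3.54 to 5.80), SOCS2 had 4.17 (2.75 to 6.07) and SOCS2-AS1 had 3.38 (1.89 to 5.57), and the intervals of all 3 overlapped. PCA3 stayed apart from them with 290 counts per kb (281 to 299) of the 14176 nt covered by its 18 annotated transcripts. Over the 3922 nt of the older model alone it had 1047 counts per kb (1015 to 1080). Only 1 of the 18 transcripts belongs to the older model, and the counting used an earlier annotation. The value of 290 may thus rest on length that could not receive pairs.

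Within the PRUNE2 locus, PCA3 held 98.4% of the 4174 counts listed for both genes (exact binomial interval 98.0% to 98.8%), a ratio of 61.3 (48.2 to 79.3). With the strands assigned as above, the minus strand over PCA3 exons gave 61.3 times as many pairs as the plus strand over PRUNE2 exons. It was not tested whether some of the pairs listed for PCA3 come from RNA of its own strand. PRUNE2 spans 294739 nt on the minus strand of chromosome 9, from 79226292 to 79521030. All of PCA3 lies inside it, in the annotation from 79306896 to 79478223. The older PCA3 model lies wholly within intron 6 of the PRUNE2 transcript ENST00000376718, an intron of 109910 nt of which it spans 21.0%. It shares 0 nt with any older PRUNE2 exon, whereas the PCA3 transcripts annotated later bring the shared exonic length to 1060 nt. Pairs listed for PCA3 through the older model thus come from sequence that is intronic in PRUNE2.

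**Figure D2:**
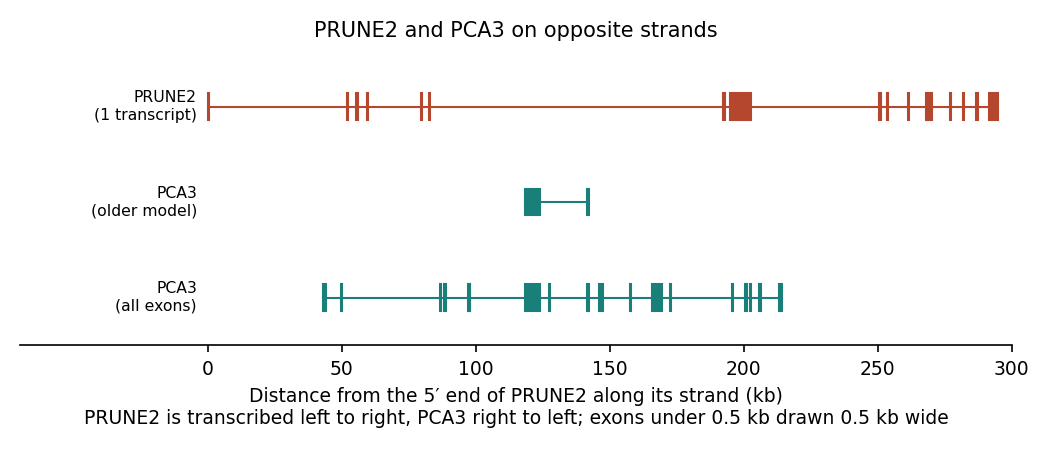
Exons of the PRUNE2 transcript ENST00000376718, of the older PCA3 model and of all annotated PCA3 transcripts, by distance from the 5′ end of PRUNE2 (kb, to scale except that exons under 0.5 kb are widened). The 4 exons of the older model, of which the last 3 lie close together and appear as 1 block, fall in the long intron 6 of PRUNE2, while later transcripts reach exons of PRUNE2.

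One PRUNE2 transcript ends close to PCA3. ENST00000376713 has its last exon at 79403260 to 79403450, and 774 nt separate this exon from the 3′ end of PCA3. Which of the PCA3 exons hold the listed pairs cannot be read from counts per gene.

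Other plus-strand genes of the neighborhood also had pairs from the minus strand. AL359314.1, annotated as a miRNA gene of 86 nt, lies in intron 9 of the same PRUNE2 transcript and had 55 counts (41.4 to 71.6). Per kb that is 640 (482 to 832), but a gene this short is shorter than a read pair's fragment, so its value per kb is not comparable with those of longer genes. Beyond the 5′ end of PRUNE2, the processed pseudogenes LYPLA2P3 and ENSG00000229857 had 87 and 57 counts, and reads of pseudogenes may be shared with their parent genes. FOXB2, a forkhead factor gene, was listed at 0, as were ATP5MFP3 and RFC5P1. At the other end GCNT1, which encodes a glycosyltransferase that branches O-glycans, had 3 counts. Its span ends at 79266119, inside that of PRUNE2, and 262 nt of its annotated exons lie opposite exons on the other strand. On the minus strand, where listed counts come from the plus strand, DNAJB5P1 had 14 and PPIAP87 had 8. Of the 11 genes other than PCA3 and PRUNE2 within 200 kb, 4 had at least 10 counts, against 24.3% of all genes, and the highest had 87.

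PCA3 was placed within a class of 1574 lncRNAs, itself included. All lie inside a protein-coding gene of the opposite strand without sharing exonic sequence with that gene by the older models. Their median count was 6, 507 were listed at 0 and 163 had at least 100. One of them had a higher count than PCA3, the lncRNA ENSG00000273179 inside SPON2, with 4922. Per kb of older exons, PCA3 with 1047 was exceeded by 12 of these lncRNAs, against a median of 8.22. With ties left out, the lncRNA exceeded its host in listed count in 41.6% of cases, so the direction seen at PCA3 and PRUNE2 is common. A ratio of this size was less common among the 758 of these pairs whose host had at least 10 counts. There the ratio of counts per kb had a median of 1.28, and PCA3 with 229 was exceeded by 12. Pairs with a host below 10 counts, such as CRADD-AS1 with 367 and CRADD with 0, were left out. A low host count can give a large ratio, so the place of PCA3 among all 1574 is not known. With all annotated transcripts and any exonic overlap, 38 of 3060 lncRNAs had a higher count than PCA3 and 544 had a higher count per kb. The length of PCA3 used for the latter includes its transcripts annotated later.

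**Figure D3:**
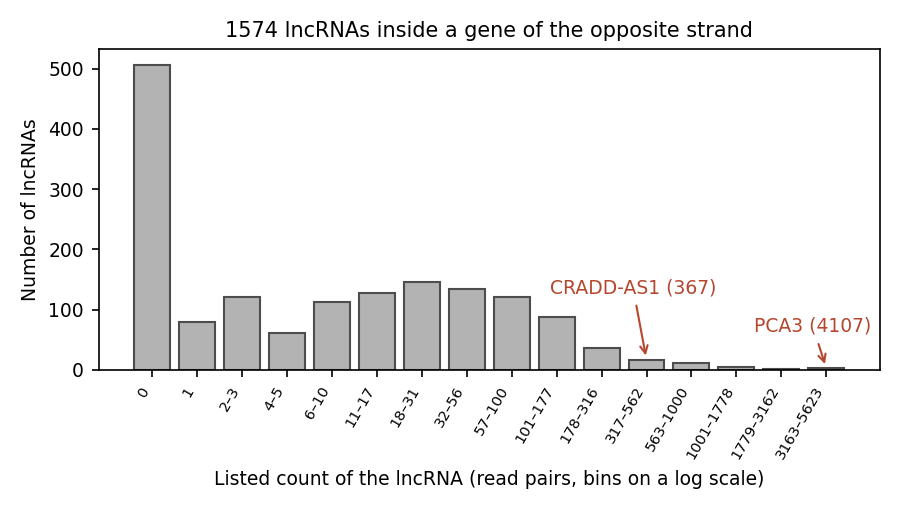
Number of lncRNAs by listed count (read pairs, bins on a log scale), for the 1574 lncRNAs inside a protein-coding gene of the opposite strand without shared exonic sequence. The most frequent value is 0, with 507 lncRNAs, PCA3 with 4107 lies in the last bin, and CRADD-AS1 with 367 lies near SOCS2 on chromosome 12.

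SOCS2 lies on the plus strand of chromosome 12 from 93963590 to 93977263, and SOCS2-AS1 on the minus strand from 93935798 to 93965544. Their 5′ ends overlap by 1955 nt. Their exons share 277 nt in 2 stretches, 75 nt at 93965100 to 93965174 and 202 nt at 93965343 to 93965544. That is 6.24% of the exonic length of SOCS2-AS1 and 4.28% of that of SOCS2. SOCS2-AS1 held 35.7% of the 42 counts listed for the pair (exact binomial interval 21.6% to 52.0%), a ratio of 0.556 to SOCS2 (0.275 to 1.08). This interval includes equal counts, but it covers counting error only. Equal counts would not mean equal density, as the exonic length is 4441 nt for SOCS2-AS1 and 6477 nt for SOCS2. Per kb of exonic length the ratio was 0.810.

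Across all 1736 pairs of a gene and its named antisense gene, the antisense gene exceeded its partner in 50.1% of cases once ties were left out. The median sum of both counts was 47.5, close to the 42 of SOCS2 and SOCS2-AS1, which lay at percentile 47.6. In the 433 pairs that overlap head to head with shared exonic sequence, as SOCS2 and SOCS2-AS1 do, the median count was 16 for the sense gene and 13 for the antisense gene. A higher sum than the 42 of SOCS2 and SOCS2-AS1 was listed for 245 of them. The summed count of SOCS2 and its antisense gene thus lay near the middle of pairs of the same arrangement, at percentile 43.3.

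**Figure D4:**
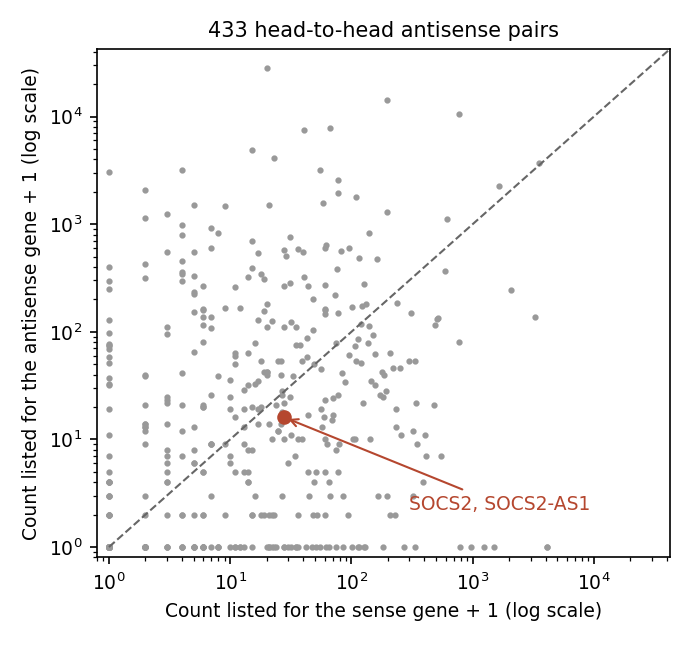
Count listed for the antisense gene against that listed for the sense gene, each plus 1 and on a log scale, for 433 head-to-head pairs with shared exonic sequence; the dashed line marks equal counts. SOCS2 with 27 and SOCS2-AS1 with 15 lie in the middle of the cloud, just below the line.

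A pattern like that of PCA3 was present beside SOCS2. CRADD-AS1, an lncRNA on the minus strand inside CRADD, had 367 counts (330 to 407), from the plus strand, that of CRADD. CRADD, which encodes a death domain adaptor protein, was itself listed at 0. UBE2N, which encodes a ubiquitin conjugating enzyme, had 225 counts (197 to 256), and NUDT4 had 25 (16.2 to 36.9). These 2 genes run toward each other and share 2474 nt of exons on opposite strands. MRPL42, which encodes a mitochondrial ribosomal protein, had 3 counts. Of the 10 genes other than the pair within 200 kb of SOCS2, 3 had at least 10 counts, against 24.3% of all genes, and 5 were listed at 0.

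PCGEM1 lies on the plus strand of chromosome 2 from 193614571 to 193641625, with 4 exons that measure 1712 nt together. With 0 counts, a fixed limit of 3 pairs, or 1.75 per kb, was used for the minus strand over these exons. The exact Poisson interval used for the other genes reaches 3.69 pairs here, or 2.15 per kb. The annotation places 0 nt of another gene's exons opposite them. Exon 2 is shown on the strand of PCGEM1, with intron bases in capitals, since pairs that carry this sequence in the first read could not be listed under PCGEM1 with the settings used.
PCGEM1 exon 2, plus strand, chr2:193615515-193615598: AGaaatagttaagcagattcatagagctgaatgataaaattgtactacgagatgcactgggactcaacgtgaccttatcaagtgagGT
The neighborhood was empty as well, with counts of 0 for the lncRNAs ENSG00000229395 and ENSG00000232227 and for RPS17P8, which are all 3 other genes within 200 kb. A count of 0 was listed for 50.6% of lncRNAs, and for 71.3% of the 4835 lncRNAs that, like PCGEM1, have no gene on the opposite strand. Since it comes from the other strand, the 0 of PCGEM1 is no measure of how much PCGEM1 RNA the cells held.

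Of a list of 25 lncRNAs studied in prostate cancer, which includes PCA3, PCGEM1 and SOCS2-AS1, 20 were found in the counts. Of these, 8 (40.0%) had at least 10 counts, against 28.4% of all lncRNAs, and their median count was 5. PCA3 was the highest. TMPO-AS1, antisense to the nuclear lamina gene TMPO, followed with 277 (245 to 312), LINC00963 with 134, NEAT1 with 79 and MALAT1 with 66. NEAT1 builds nuclear paraspeckles and MALAT1 resides in nuclear speckles. Per kb of all annotated exons, MALAT1 had 6.33 counts and NEAT1 had 3.47, beside 290 for PCA3. Exons of other genes lie opposite 83.7% of this length for MALAT1, 7.48% for PCA3 and 0% for NEAT1. What lies behind these differences was not tested. At 0 were PCAT4, ARLNC1, DRAIC, LINC00844, H19 and TUG1 in addition to PCGEM1, and 5 further lncRNAs had 1 to 9 counts. Of the 11 lncRNAs of the list with exons opposite exons of another gene, 7 had at least 10 counts, against 1 of the 9 without such exons, namely NEAT1. The same split is general in these counts, as at least 10 were listed for 51.6% of all lncRNAs with exons opposite exons, for 26.2% of those that overlap a gene of the opposite strand without shared exons and for 8.50% of those with no gene opposite. PCA3 is among the 11 through its later transcripts only. Whether a part of the count of PCA3 comes from RNA of its own strand was not tested.

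**Figure D5:**
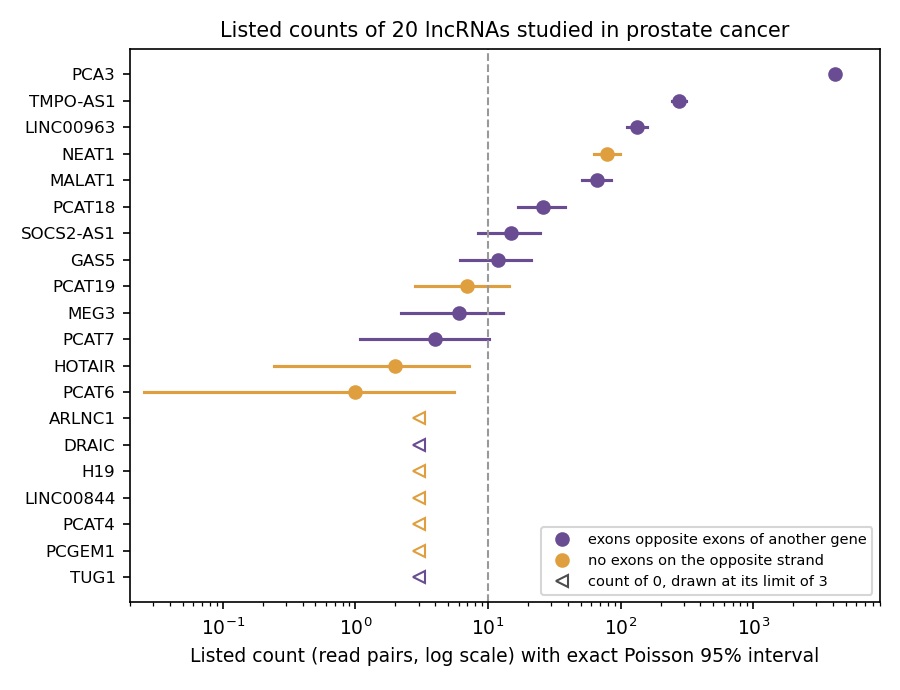
Listed counts (read pairs, log scale) of 20 lncRNAs studied in prostate cancer, with exact Poisson intervals, colored by whether their exons lie opposite exons of another gene in the annotation; the dashed line marks 10 counts. PCA3 with 4107 is followed by TMPO-AS1 with 277, and 7 of the 20, PCGEM1 among them, are at 0 and drawn at their limit of 3.

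Relatives and partners of SOCS2 were listed at 0 to 38. Of the 8 genes of the SOCS family 7 were found, and 2 of them had at least 10 counts, SOCS2 with 27 and SOCS4 with 14, against 44.2% of protein-coding genes. SOCS6 had 3, and CISH, SOCS1, SOCS3 and SOCS5 were listed at 0. All 4 partners through which SOCS proteins form a ubiquitin ligase had at least 10 counts, a list too short to be read against the same 44.2%, with 38 for CUL5, the scaffold, 31 for ELOB, 24 for RNF7 and 16 for ELOC.

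Among 9 receptors, kinases and factors of the growth hormone pathway, 6 had at least 10 counts, against 44.2% of protein-coding genes. The receptors GHR, PRLR and IGF1R had 9, 6 and 8. The kinases JAK1, TYK2 and JAK2 had 62, 21 and 14. STAT5B with 57 and STAT5A with 31, the factors activated by growth hormone, lie on opposite strands and share 415 nt of exons, and STAT3 had 55. As for SOCS2 itself, these are counts from the other strand and not levels of the pathway.

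Relatives of PRUNE2 and enzymes that edit double-stranded RNA were listed at 4 to 95. ATCAY, which encodes a neuronal protein with a BCH domain, had 95 counts (76.9 to 116), and BNIPL, BNIP2 and PRUNE1 had 8, 7 and 4. ADAR, the main adenosine deaminase acting on double-stranded RNA, had 80 (63.4 to 99.6) and its relative ADARB1 had 7. In this list 2 of 6 genes had at least 10 counts, against 44.2% of protein-coding genes.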

How the data were processed

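Poly(A)+ RNA of LNCaP cells without androgen was sequenced in 2 biological replicates. According to the methods and the submitters' processing notes, reads were trimmed with Trimmomatic 0.30, aligned to hg19 by TopHat2 2.0.12 with Bowtie2 2.2.3, and counted with HTSeq 0.6.1p1 on an earlier annotation. The authors deposited raw counts of read pairs per gene, without normalization, for both replicates in 1 column, with 5 summary lines that were kept out of the library size. The strand of each count follows from the stated settings, assumed to apply to these libraries, and was not checked on reads.

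Ensembl identifiers were matched without version to GENCODE 44 on GRCh37, which gave a model for 55538 genes. Exonic length is the union of annotated exons, or of transcripts numbered below 610000 (older models). An antisense pair is a gene and the gene of the same symbol with an ending of AS and a number. CPM uses the 9495309 pairs on genes. Intervals are exact Poisson or exact binomial (Clopper-Pearson) at 95%, and a count of 0 is given a fixed limit of 3 counts. No molecular identifiers were used, so the intervals hold counting error alone. Interval and class code was tested on simulated data. With 1 condition there was no test, and no test compares genes.

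The genes and lists were chosen with earlier results of these data known. Named genes are the 5 genes, all genes within 200 kb of PRUNE2, PCGEM1 or SOCS2, the marker lists, and, of longer lists, the 5 highest with the rest as counts; others named from the lists, ENSG00000273179 and genes opposite them were named after their values were seen. Some genes of these lists are not reported here. Alternatives were the length, the library size, the background of genes, the minimum count and the kinds of pairs. Python 3.11.15, numpy 2.4.6, pandas 2.3.3, scipy 1.17.1 and matplotlib 3.10.9 were used.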

Additional observations from a re-analysis of the deposited data

How the results depend on the processing

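No paired analysis was possible because the counts of both replicates stand in 1 column, and for the same reason leaving out a replicate was not run. The share of PCA3 was 98.4% as listed, 99.5% per kb of the longest transcript and 99.6% per kb of older exons, a length chosen after seeing the data. Without the 3 highest features in the library size, the CPM was 840 for PCA3, 13.7 for PRUNE2, 5.52 for SOCS2 and 3.07 for SOCS2-AS1, and with all uniquely placed pairs it was 27.6, 0.451, 0.182 and 0.101. Among genes with at least 10 counts, the percentile of PCA3 was 98.97, that of PRUNE2 59.6, that of SOCS2 34.8 and that of SOCS2-AS1 15.2, and ranked by count per kb these were 94.35, 44.6, 43.1 and 39.2. Of the prostate lncRNAs, 13 had at least 1 count, and 1 without opposite-strand exons, an alternative chosen after seeing the data, had at least 10. The antisense gene had the higher value in 54.2% of pairs with a summed count of at least 10 and in 60.6% of pairs per kb. The lncRNA exceeded its host in 40.0% without exonic overlap, in 50.8% with or without it and in 60.2% per kb. The changes in CPM follow from the library size used, and what lies behind the other changes was not tested. The share of SOCS2-AS1 stayed within its interval under all 3 alternatives run. Depth limits SOCS2, SOCS2-AS1 and PCGEM1 most, with 27, 15 and 0 pairs, while the gene models used for counting, which set every length and class, are not the ones used here.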
